A study of Arabidopsis thaliana with 6 samples.

Results

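AT1G79620 encodes VRLK1, a vascular receptor kinase with leucine-rich repeats, and is 1 of the 16548 genes that rows of the array name singly. Its row was found by the gene name in the array's annotation, which gives it 1 row, and the gene was chosen by its level, its rank and its difference between the groups in these same arrays. Those values are therefore a description, with no test. The series holds 6 expression arrays of Arabidopsis cells grown in suspension in the dark, from a line labelled Alex. Cells of the 3 induced arrays were kept with 5 µM estrogen for 24 h. The 3 uninduced arrays come from cells that were sampled after 24 h in culture and received none. All 6 samples carry the same construct, ATHB8-GFP, a fusion of the transcription factor ATHB8 and green fluorescent protein that estrogen switches on. No line without the construct is among the samples, so an effect of estrogen itself and an effect of the fusion protein cannot be told apart. The stated purpose of the series was a search for targets downstream of ATHB8.

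Receptor kinases with leucine-rich repeats span the plasma membrane, with repeats outside the cell that recognise a ligand or a partner receptor and a kinase domain inside that passes the signal on. VRLK1 is known from Arabidopsis plants, where its gene is active in vascular tissue and in cells that thicken their secondary wall, and where too much of it hinders wall thickening and the opening of anthers. ATHB8 is one of the HD-ZIP III transcription factors, which pair a homeodomain with a leucine zipper, and its gene marks procambium, the tissue that gives rise to xylem and phloem.

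Each value is a log2 signal as the authors deposited it, for 38408 rows, and no total count or background level goes with it. The number of arrays limits the precision. The median over all rows lay between 5.84 and 5.95 in the induced arrays and between 5.80 and 5.95 in the uninduced arrays. The replicate 1 arrays of the groups held exactly the same value in 12229 rows (31.8%), and AT1G79620 is not among these rows. ATHB8 has no row under its name, so its own induction is not shown here. Of 29 marker genes listed for procambium, phloem, photosynthetic cells, dividing cells, and endothecium and tapetum, 4 were measured under their name, so the identity of the cultured cells could not be checked against its defining markers. The mitotic kinase gene AUR1 had a mean log2 signal of 10.92 ± 0.04 in induced cells and 11.34 ± 0.05 in uninduced cells (SD, n = 3 each), a difference of -0.42 ± 0.10 (SE; limma adjusted p = 0.175). The phloem gene OPS differed by 0.04 ± 0.23 (adjusted p = 1.0), the tapetum regulator AMS by 0.06 ± 0.12 (adjusted p = 1.0) and AT5G07230 by 0.15 ± 0.29 (adjusted p = 1.0). OPS, AMS and AT5G07230 are among the rows with equal replicate 1 values, so their groups could not stand apart. The part of such cell states in the values of AT1G79620 was not tested. In a bulk culture, more cells that use a gene and more RNA of it per cell cannot be told apart.

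The log2 signal of AT1G79620 was 7.64, 8.02 and 8.09 in the induced arrays of replicates 1, 2 and 3, against 5.22, 5.39 and 5.28 in the uninduced arrays of replicates 1, 2 and 3. The groups did not overlap, and the lowest induced value stood 2.26 log2 units (4.79-fold) above the highest uninduced value. The mean was 7.92 ± 0.24 in induced cells and 5.29 ± 0.08 in uninduced cells (SD, n = 3 each). The difference of 2.62 on the log2 scale is a 6.17-fold higher signal in the induced cells. Within same-numbered arrays the difference was 2.42 (5.36-fold) in replicate 1, 2.64 (6.23-fold) in replicate 2 and 2.81 (7.03-fold) in replicate 3. The 3 induced values spread over 0.44 log2 units and the 3 uninduced values over 0.16, both far below the gap between the groups. The replicate 1 array was the lowest in each group, 0.27 log2 units below the mean of the induced arrays and 0.07 below that of the uninduced arrays. In replicates 2 and 3 alone the difference was 2.73.

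**Figure D1:**
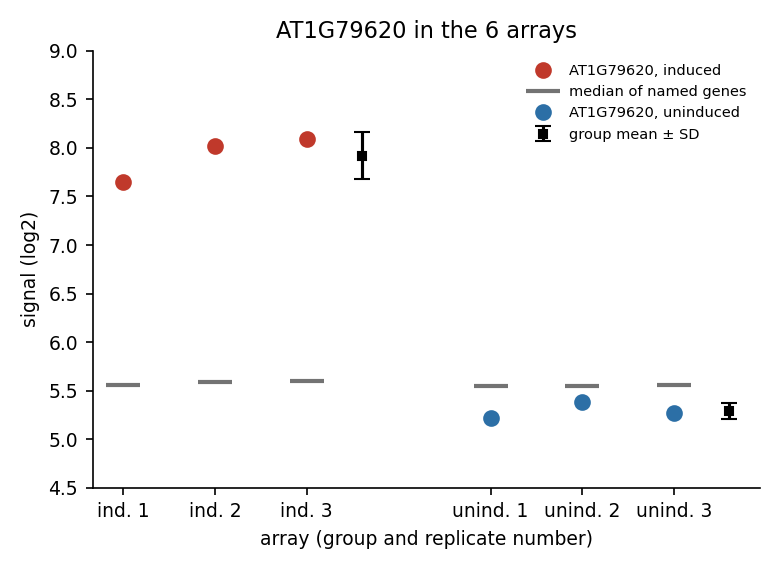
Log2 signal of AT1G79620 (y axis) in each array (x axis), with induced arrays in red and uninduced arrays in blue; black squares are group means with SD (n = 3 each), and grey bars are the median of the named genes in that array. The induced arrays lie between 7.64 and 8.09, above the median bars, and the uninduced arrays between 5.22 and 5.39, below them.

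In the induced arrays the signal of AT1G79620 stood above the median of the named genes by 2.08, 2.44 and 2.49 log2 units in replicates 1, 2 and 3. In the uninduced arrays it stood at -0.33, -0.16 and -0.28 log2 units from that median in replicates 1, 2 and 3. Its place among the 16548 named genes was percentile 71.0 to 76.6 in the induced arrays and percentile 47.1 to 48.3 in the uninduced arrays. The row therefore lay near the middle of the named genes without estrogen and in the upper part of their range with it. In the uninduced arrays of replicates 1, 2 and 3 it lay below the median over all rows, which was 5.95, 5.80 and 5.83. Probes differ in how they respond to the same amount of RNA, so these places describe the signals and do not rank amounts of transcript.

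Among all named genes the difference of AT1G79620 was the rank 14 rise, and 14 genes (0.0846%), itself included, had one of that size or more. It was rank 15 in the replicate 1 pair, rank 17 in the replicate 2 pair and rank 13 in the replicate 3 pair. Just above it stood AT3G53190, TRI (AT2G29330), a homologue of tropinone reductase, and AT3G13980, with log2 differences of 2.76, 2.72 and 2.66. Just below it stood AT5G16230, AT2G35585 and AT1G62480, with log2 differences of 2.54, 2.53 and 2.47. TRI had induced values of 5.78, 5.60 and 5.81 against uninduced values of 3.39, 2.73 and 2.89 in replicates 1, 2 and 3. AT3G13980 had induced values of 6.54, 7.46 and 7.08 against uninduced values of 3.78, 4.68 and 4.63. In AT1G62480 the induced values were 6.64, 6.93 and 6.98, while the uninduced values were 5.23, 3.87 and 4.05 and spread far more widely than those of AT1G79620. The pooled SD within groups was 0.18 for AT1G79620, at percentile 45.3 of the named genes, whose median was 0.19. Its replicates were thus about as close as those of a typical gene.

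There were 795 named genes, AT1G79620 among them, whose uninduced mean lay within 0.25 log2 units of its own. Their median difference was -0.01, and the central 95% lay between -0.60 and 1.0. Of these genes 2 had a difference of 2.62 or more, AT1G79620 itself and AT3G53190. Since AT1G79620 was chosen by its level and its difference, this count describes its place among these genes and tests nothing.

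**Figure D2:**
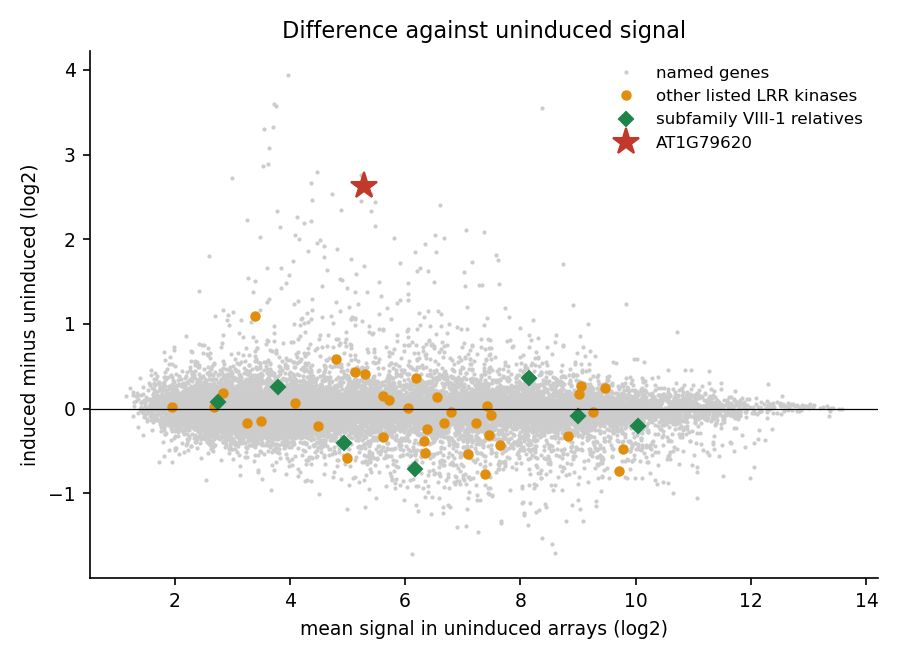
Induced minus uninduced log2 signal (y axis) against the mean log2 signal of the uninduced arrays (x axis) for the 16548 named genes (grey), with AT1G79620 as a red star, its 7 subfamily relatives as green diamonds and other listed receptor kinases with leucine-rich repeats as orange circles. AT1G79620 stands at 5.29 and 2.62, and every green or orange point lies below it, the highest at 1.09.

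AT1G79620 belongs to subfamily VIII-1 of the leucine-rich repeat receptor kinases. The subfamily is known for HPCA1, a receptor that senses hydrogen peroxide outside the cell. The 7 other genes listed for the subfamily all had a row, and 0 of them passed the test at a limma adjusted p under 0.05, taken over all 38408 rows. Over all named genes 1.13% were called, 0.719% higher and 0.411% lower in the induced cells, and 0.731% were called with the replicate number as a block. At that share 0 calls in a list this small, here and below, say little about its members. An unadjusted p under 0.05 was reached by 1 of the 7 on the higher side and 1 on the lower, and by 4.01% and 4.71% of the named genes. Their median difference was -0.09 on the log2 scale, between -0.72 and 0.36, beside a median of -0.01 over all named genes. In 3 of the 7 the groups did not overlap, beside a share of 12.9% over all named genes. Equal values in the replicate 1 arrays, which keep groups from standing apart, were held by 2 of the 7 and by 44.4% of all named genes.

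AT5G49760, the gene of HPCA1, had the largest positive difference of these relatives. Its log2 signal was 8.65, 8.46 and 8.40 in the induced arrays of replicates 1, 2 and 3, against 8.13, 8.21 and 8.08 in the uninduced arrays. The 3 induced values lay above the 3 uninduced ones, with a difference of 0.36 ± 0.11 (SE, n = 3 each; limma adjusted p = 0.358). AT5G49780 had the largest negative difference. It gave 5.64, 5.26 and 5.44 in the induced arrays of replicates 1, 2 and 3, against 6.08, 6.18 and 6.22 in the uninduced arrays. Here the 3 induced values lay below the 3 uninduced ones, and the difference was -0.72 ± 0.13 (adjusted p = 0.0826). AT5G49780 passed when rows of low signal were left out (limma adjusted p = 0.0461) and over rows that name 1 gene (0.0450). The locus codes of AT5G49760, AT5G49770 and AT5G49780 follow each other, and whether their probes share targets was not tested.

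The other 5 relatives lay within 0.41 log2 units of no difference. AT1G06840 had a log2 signal of 9.96, 9.77 and 9.78 in the induced arrays against 10.03, 10.08 and 10.02 in the uninduced arrays, a difference of -0.21 ± 0.11 (SE, n = 3 each; limma adjusted p = 0.777). AT5G01950 differed by -0.09 ± 0.13 (adjusted p = 1.0) between means of 8.90 in induced and 8.99 in uninduced cells. AT5G37450 differed by -0.41 ± 0.23 (adjusted p = 0.82) between means of 4.53 in induced and 4.94 in uninduced cells. The values overlapped between the groups in AT5G01950 and AT5G37450. AT3G53590 (0.25 ± 0.26; adjusted p = 1.0) and AT5G49770 (0.08 ± 0.20; adjusted p = 1.0) had equal values in the replicate 1 arrays, so their groups could not stand apart. The plot of the subfamily shows the 6 values of each gene.

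**Figure D3:**
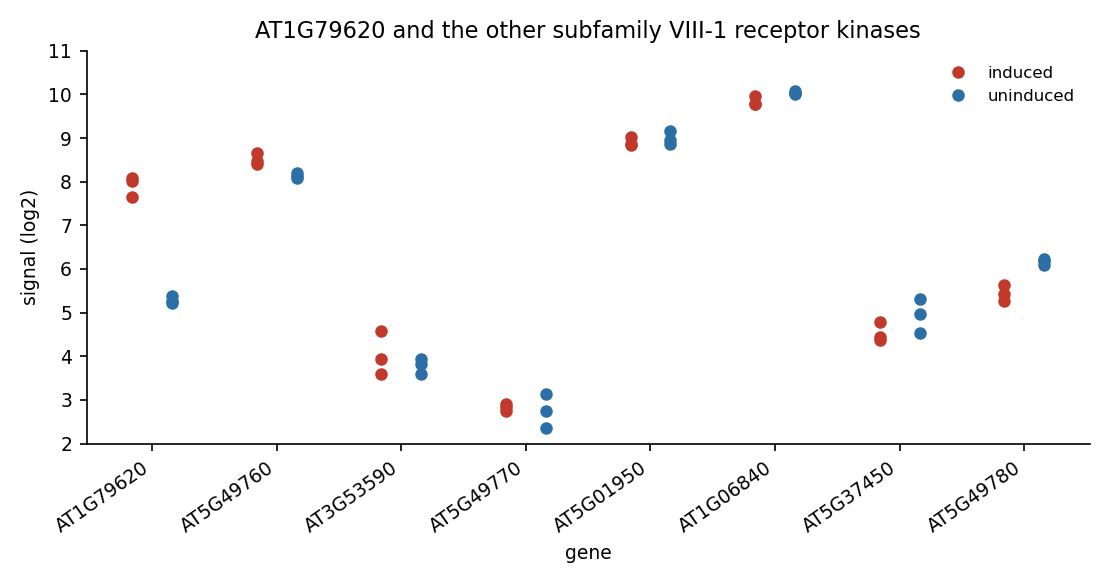
Log2 signal (y axis) of AT1G79620 and its 7 subfamily relatives (x axis), with 3 induced arrays (red, left of each tick) and 3 uninduced arrays (blue, right). The red and blue points of AT1G79620 stand 2.26 log2 units apart at their nearest, while the means of each relative differ by between -0.72 and 0.36.

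The same comparison was made with more distant receptor kinases. With the subfamily, 90 leucine-rich repeat receptor kinases were listed from general knowledge of the family, of which 45 were measured under their name. Of these 0 passed in limma, beside 1.13% of all named genes. An unadjusted p under 0.05 was reached by 4 of the 45 on the higher side and 6 on the lower. Over all named genes 4.01% and 4.71% reached it. Of the 45 kinases 20 lay higher and 25 lower, with a median difference of -0.08 on the log2 scale. In 14 of them (31.1%) the groups did not overlap, beside 12.9% of all named genes. The 2 shares have unlike bases, since equal replicate 1 values, which keep groups from standing apart, were held by 14 of the 45 kinases and by 44.4% of all named genes. AT1G79620, which was chosen by its difference, had the largest difference of the 46 with itself included. The next largest, 1.09 ± 0.30 (SE, n = 3 each; limma adjusted p = 0.245), was that of AT2G24230, a gene chosen after its values were seen. AT2G24230 had a log2 signal of 4.70, 4.30 and 4.47 in the induced arrays of replicates 1, 2 and 3, against 4.05, 3.01 and 3.12 in the uninduced arrays. It was the only 1 of the 45 with a difference of at least 2-fold.

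Among receptors of vascular tissue and meristems, BRL1, a brassinosteroid receptor, had the smallest p. The log2 signal of BRL1 was 8.98, 9.02 and 8.92 in the induced arrays of replicates 1, 2 and 3, against 9.80, 9.75 and 9.57 in the uninduced arrays. The induced values lay below the uninduced ones, the opposite order to AT1G79620, with a difference of -0.73 ± 0.11 (SE, n = 3 each; limma adjusted p = 0.0509). BRL1 passed in 5 alternative fits, the lowest limma adjusted p being 0.0108. The receptor kinase genes PXL2 and PXL1, relatives of the receptor PXY that keeps procambium dividing, differed by 0.10 ± 0.12 and -0.04 ± 0.15 (adjusted p = 1.0 for each). MOL1, which restrains lateral growth of the stem, differed by 0.01 ± 0.21 (adjusted p = 1.0). PXL2 and MOL1 had equal values in the replicate 1 arrays, so their groups could not stand apart. Of the 24 genes listed in this group 4 were measured and 0 called, beside 1.13% of all named genes.

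In the sister subfamily VIII-2, 9 of 12 listed genes were measured and 0 called, beside 1.13% of all named genes. Their median difference was -0.08. The 4 with the smallest p were AT1G53440 (0.36 ± 0.15 on the log2 scale; SE, n = 3 each; limma adjusted p = 0.581), AT1G07650 (-0.24 ± 0.12; 0.76), AT1G53430 (-0.33 ± 0.19; 0.865) and AT1G56140 (0.27 ± 0.17; 0.907). Among other receptor kinases 24 of 44 listed genes were measured, 0 of them called beside the same 1.13%, with a median of -0.09. The smallest p belonged to 4 genes that lay lower in every induced array than in any uninduced array. These were AT1G14390 (-0.77 ± 0.17; adjusted p = 0.145), AT5G48940 (-0.54 ± 0.12; 0.148), AT5G63410 (-0.52 ± 0.12; 0.156) and AT1G34110 (-0.48 ± 0.12; 0.210). AT1G14390 passed with a block for replicate 1 against the other arrays (limma adjusted p = 0.0280), a fit that called 532 named genes against 187 in the reported one.

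Receptors that watch over the wall are a further group at the cell surface. Of 15 listed genes 5 were measured and 0 called in limma, beside 1.13% of all named genes. An unadjusted p under 0.05 was reached by 0 of the 5. Over all named genes 4.01% reached it on the higher side and 4.71% on the lower. In 4 of the 5, FER, THE1, ANX1 and ANX2, the replicate 1 arrays held equal values, so their groups could not stand apart. FER, a receptor kinase of cell growth, had a log2 signal of 10.43, 10.21 and 10.11 in the induced arrays of replicates 1, 2 and 3, against 10.43, 10.23 and 10.12 in the uninduced arrays. The difference of -0.01 ± 0.14 (SE, n = 3 each; adjusted p = 1.0) was small beside the spread of FER within each group. THE1, known for slowing growth when cellulose is lacking, differed by 0.06 ± 0.13 (adjusted p = 1.0), ANX1, known from pollen tubes, by 0.04 ± 0.32 (adjusted p = 1.0) and AT4G08850 by -0.24 ± 0.14 (adjusted p = 0.849).

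**Figure D4:**
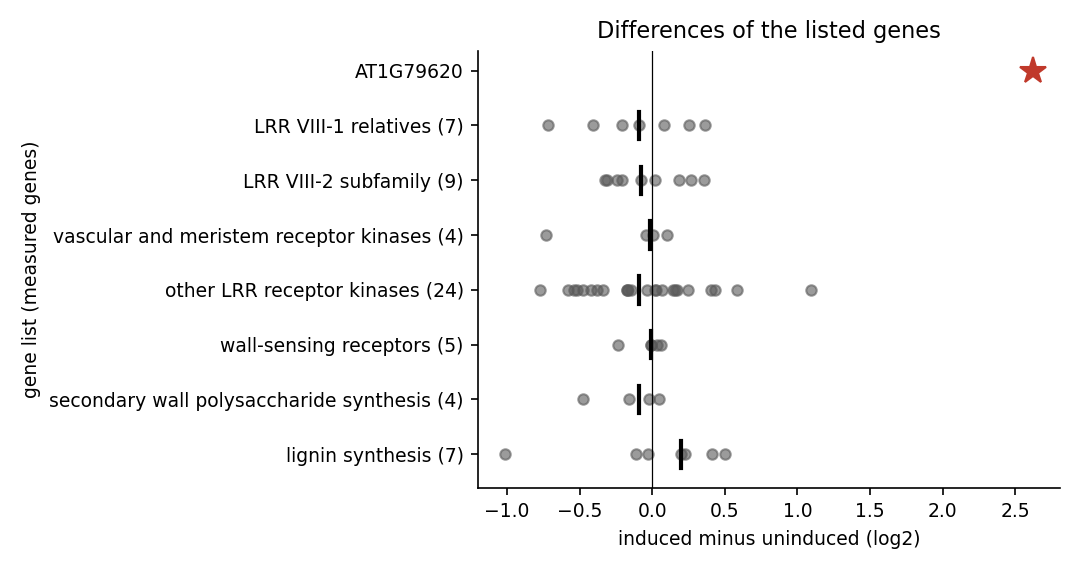
Induced minus uninduced log2 signal (x axis) of AT1G79620 (red star) and of each measured gene of 7 lists (y axis, with the number of measured genes); black bars are the medians. AT1G79620 stands at 2.62, and the listed genes lie between -1.02 and 1.09.

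Genes of the secondary wall, the process VRLK1 is known for, were measured only in part. Of 28 genes listed for polysaccharides of the secondary wall 4 were measured and 0 called in limma, beside 1.13% of all named genes. An unadjusted p under 0.05 was reached by 0 of the 4, and by 4.01% (higher) and 4.71% (lower) of all named genes. The median difference of the 4 was -0.09 on the log2 scale. All 4 act in xylan synthesis. IRX15 gave 2.91, 2.20 and 2.43 in the induced arrays of replicates 1, 2 and 3, against 2.91, 2.88 and 3.18 in the uninduced arrays, a difference of -0.48 ± 0.21 (SE, n = 3 each; adjusted p = 0.633). IRX15-L differed by -0.16 ± 0.18 (adjusted p = 1.0), GUT1 by 0.05 ± 0.11 (adjusted p = 1.0) and GUT2, also known as IRX10, by -0.02 ± 0.11 (adjusted p = 1.0).

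Of 27 genes listed for lignin 7 were measured and 0 called, beside 1.13% of all named genes, with a median difference of 0.20 on the log2 scale. An unadjusted p under 0.05 was reached by 1 on the higher side and 1 on the lower, and by 4.01% and 4.71% of all named genes. In 3 of the 7 the replicate 1 arrays held equal values. CCR2, a cinnamoyl-CoA reductase, had a log2 signal of 6.77, 6.12 and 6.60 in the induced arrays of replicates 1, 2 and 3, against 7.58, 7.26 and 7.70 in the uninduced arrays. All 3 induced values lay below the uninduced ones, by -1.02 ± 0.21 in the mean (SE, n = 3 each; limma adjusted p = 0.119). AT2G22420 differed by 0.41 ± 0.14 (adjusted p = 0.393), the peroxidase gene PRX71 (AT5G64120) by 0.50 ± 0.26 (0.769) and the peroxidase gene PRX25 (AT2G41480) by 0.23 ± 0.19 (1.0). Of the 37 listed regulators of xylem and the secondary wall 1 was measured, the zinc finger gene C3H14 (AT1G66810), at -0.02 ± 0.13 (adjusted p = 1.0). Of the 6 listed proteases and nucleases of dying xylem cells 0 were measured under their name. Of the 7 genes listed for the opening of anthers and fruits 1 was measured, the polygalacturonase gene ADPG1 at 0.12 ± 0.54 (adjusted p = 1.0), and of the 5 HD-ZIP III genes 1, PHV, at -0.02 ± 0.11 (adjusted p = 1.0). C3H14 and ADPG1 had equal values in the replicate 1 arrays, so their groups could not stand apart. The remaining measured lignin genes, HCT, PRX52 and AT5G66390, differed by -0.11 ± 0.11, -0.03 ± 0.20 and 0.20 ± 0.31 (SE). Listed genes of wall thickening that were not measured have no row under their own name and were not analysed here.

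The genes beside AT1G79620 on the chromosome were read from the order of loci in the RefSeq table (TAIR10.1), in which 0 other genes overlap it. Of the 10 nearest protein-coding genes, 5 on each side, 3 had a named row and 0 were called in limma, beside 1.13% of all named genes. AT1G79630, the next gene after it, had a log2 signal of 7.29, 6.89 and 6.87 in the induced arrays of replicates 1, 2 and 3, against 6.74, 6.26 and 6.30 in the uninduced arrays. Its induced values lay above its uninduced ones, with a difference of 0.58 ± 0.19 (SE, n = 3 each; adjusted p = 0.373). Within same-numbered arrays AT1G79630 differed by 0.55, 0.63 and 0.57 in replicates 1, 2 and 3. Its limma adjusted p was 0.0746 with the replicate block and 0.0259, a call, with a block for replicate 1 against the other arrays. The latter block called 532 named genes, against 187 in the reported fit. AT1G79640, which follows AT1G79630, differed by 0.13 ± 0.11 (adjusted p = 1.0). AT1G79570, the fifth gene before AT1G79620, differed by 0.02 ± 0.10 (adjusted p = 1.0). AT1G79640 and AT1G79570 had equal values in the replicate 1 arrays, so their groups could not stand apart.

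The genes most like AT1G79620 across the arrays were sought among the 9188 other named genes without equal values in any pair of arrays. Likeness was measured over 6 arrays that fall into 2 groups, so it reflects mostly the difference between the groups and carries no test. A Pearson correlation of 0.95 or more was found in 238 of these genes (2.59%) and of -0.95 or less in 248 (2.70%). The 5 highest were AT5G13980 (r = 0.9991), AT2G31110 (0.9975), which encodes TBL40 of the TRICHOME BIREFRINGENCE-LIKE family, AT1G71695 (0.9968), the fatty acid amide hydrolase gene FAAH (0.9967) and AT3G23175 (0.9966). Their differences varied in size. The difference was 0.28 in AT5G13980, 2.41 in AT2G31110, 3.32 in AT1G71695, 0.26 in FAAH and 1.76 in AT3G23175 on the log2 scale. In AT2G31110 the signal was 8.67, 9.18 and 9.17 in the induced arrays of replicates 1, 2 and 3, against 6.54, 6.80 and 6.45 in the uninduced arrays. As in AT1G79620, the replicate 1 array was the lowest of its induced arrays. Of the 45 listed receptor kinases 0 had an r of 0.95 or more, and 4 had an r of -0.95 or less. These counts include the 14 kinases with equal replicate 1 values, so they have another base than the shares above.

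By the distance between the 6 log2 values, which counts size as well as pattern, the nearest genes were AT3G24460 (distance 0.42), AT2G35585 (0.42), AT4G14740 (0.50), AT3G53190 (0.68) and RTFL7 (0.72), of the ROTUNDIFOLIA-like family of small peptides. AT3G24460 had a signal of 7.73, 7.97 and 8.07 in the induced arrays of replicates 1, 2 and 3, against 5.60, 5.44 and 5.40 in the uninduced arrays. AT2G35585 gave 7.86, 7.97 and 8.0 in the induced arrays, against 5.49, 5.28 and 5.47 in the uninduced arrays. Both followed AT1G79620 to within 0.4 log2 units in each array. RTFL7 was lower in the induced replicate 1 array, at 7.06, than in the induced arrays of replicates 2 and 3, at 7.93 and 7.92, against 5.36, 5.45 and 5.63 in the uninduced arrays. The differences of these 5 genes lay between 2.16 and 2.76 on the log2 scale. The plot of like genes sets the 2 choices side by side.

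**Figure D5:**
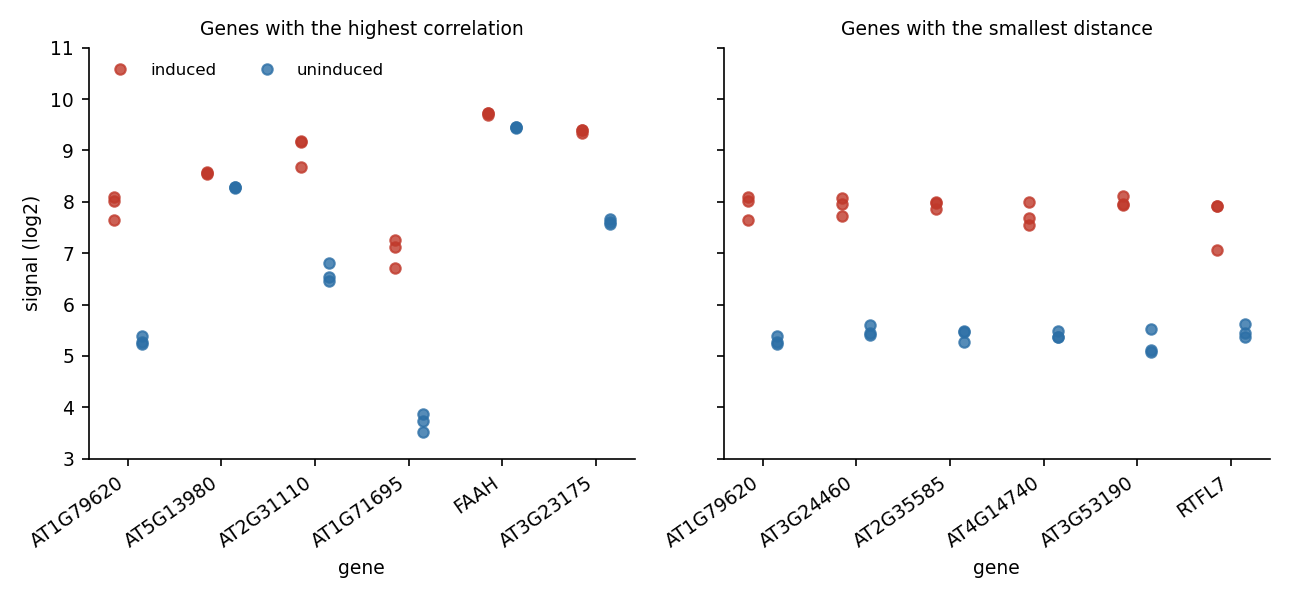
Log2 signal (y axis) of AT1G79620 and of the 5 genes with the highest Pearson correlation with it (left panel) or the smallest distance to it (right panel), with 3 induced arrays in red and 3 uninduced arrays in blue. The left genes share the order of the groups with differences from 0.26 to 3.32, and the right genes share its values, with differences from 2.16 to 2.76.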

How the data were processed

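The 6 arrays were labelled as sense-strand DNA from total RNA, per the labels' protocols. The authors deposited log2 signals and, per the submitters' processing notes, used Affymetrix Expression Console 1.3. Background correction, normalization, summarization and genome build are not given in the sources used here. The values were used as deposited.

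Of the 38408 rows 16722 name 1 gene. Of the 148 genes with several rows, the row with the highest mean was kept. Symbols came from a RefSeq table (TAIR10.1). Fold changes are 2 to the power of differences in mean log2 signal.

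Induced minus uninduced was tested over all rows with limma 3.58.1 (lmFit, eBayes, two-sided, Benjamini-Hochberg, threshold 0.05) in R 4.3.3. The code was tested on simulated data with independent values in each array. Those data had no equal or shared replicate values, so they check the code and not the p-values of these arrays. Whether replicates are separate cultures is not stated, so p-values may measure technical spread.

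Around the group means, the replicate 1 arrays deviated together, with a correlation of 0.633, and held equal values in 31.8% of rows. Same-numbered arrays of replicates 2 and 3 gave 0.268 and 0.248, and their crossed pairs gave 0.244 and 0.260. Deviations cancel within a group, so a deviation shared by the replicate 1 arrays pushes these other correlations upward. That they exceed the set threshold of 0.1 therefore cannot show pairing by number in replicates 2 and 3. Differences within same-numbered arrays are given for some genes as a description. The reported limma fit has no replicate block, so its SE and adjusted p take no account of pairs. A fit with that block is among the alternatives.

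The gene and all lists were chosen with earlier results of these data known. The lists of subfamily VIII-2 and of other receptor kinases were added once the files were at hand, since 0 such kinases are named in the RefSeq table. The text names AT1G79620, every measured subfamily VIII-1, HD-ZIP III and lignin gene, measured neighbours and up to 4 genes of each other list by p. It also names the 5 genes most like AT1G79620 by each measure, and 3 genes on either side by difference. Receptor kinases were not ranked by level, since signals of different probes do not compare. The alternatives were 2 other normalizations, 2 blocks, replicates 2 and 3 only, each array left out, a filter at percentile 25, another variance prior, rows naming 1 gene only and within-array percentiles.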

Additional observations from a re-analysis of the deposited data

How the results depend on the processing

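The replicate block left the difference of AT1G79620 at 2.62, which a block cannot move in a balanced design. The difference was 2.61 with median subtraction and with quantile normalization, 2.73 in replicates 2 and 3 only, and between 2.54 and 2.76 when each array was left out in turn. On within-array percentiles it was 27.0 percentage points, a different unit. The gene has 1 row, so no mean over rows could be taken. The count of called named genes, 187 as reported, was 121 with the replicate block, 532 with a block for replicate 1 against the rest, 40 in replicates 2 and 3 only, 350 with the filter at percentile 25, 351 over rows naming 1 gene and 355 with the trended, robust prior, and it lay between 26 and 83 without each array in turn. The replicate block called 0 of the 45 listed receptor kinases, as in the reported fit. AT5G49780 passed in 2 fits and BRL1 in 5 (limma adjusted p 0.0108 to 0.0457), with quantile normalization among them. With the block for replicate 1, AT1G14390 (limma adjusted p = 0.0280), AT1G79630 (0.0259) and AT2G24230 passed. AUR1 passed with the trended, robust prior (0.0267). No signal over background is known, which limits what the low rows show.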
